A study of Mus musculus with 8 samples.

Results

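The genes described here are 8 genes of bone morphogenetic protein (BMP) signalling and its inhibitor-of-differentiation output: the ligand gene Bmp4, the inhibitory Smad genes Smad6 and Smad7, the 4 Id genes (Id1, Id2, Id3 and Id4) and the homeobox gene Msx1. They were taken as all non-control probes that carry 1 of these names in the array files, which gave 8 of the 34821 names and 9 of the 55681 probes: 2 for Bmp4 and 1 for each other gene. The arrays held RNA of mouse C2C12 muscle cells, which grow as myoblasts and fuse into myotubes when serum is withdrawn. There were 4 samples given an siRNA against macroH2A1.1 and 4 given a control siRNA, all myotubes harvested at differentiation day 4. MacroH2A1.1 is the form of this histone variant whose macrodomain binds ADP-ribose, and an siRNA lowers messenger RNA without removing the gene. One label field calls the treated cells a knockout, while the titles and the design name an siRNA, which is followed here. All samples come from 1 line and the labels do not say whether cultures were separate, so the p-values may reflect technical spread only.

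BMP ligands bind receptor kinases at the cell surface, which phosphorylate Smad1, Smad5 and Smad9. These join Smad4, enter the nucleus and switch on genes that include the Id family and Smad6 and Smad7, which close a negative feedback loop. Id proteins have a helix-loop-helix domain but no basic region, so they bind E proteins such as those of Tcf3 and Tcf12 without binding DNA, and thereby keep MyoD and its relatives from their E-box sites. In myoblasts, BMP signals, Id proteins and Msx1 are known as brakes on muscle differentiation.

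Promoter sequence was read for 6 of the 8 genes in the RefSeq promoter table (build GRCm38.p6, 250 bases before to 50 after the start). Id1 had no entry there, and Smad7 was left out of the search, so the counts below say nothing about either. Of the 6 windows, 3 are shown: Smad6 for its palindromic Smad element, Id2 for holding both a GC-rich Smad motif and an E-box, and Bmp4 for its 3 E-boxes. Id4 and Msx1 hold 1 motif match each, and Id3 none. Capitals mark the palindromic Smad element GTCTAGAC, the GC-rich Smad motif GGCGCC and the E-box CANNTG, each of which reads the same on both strands.
Smad6, chr9:64022030-64022159, minus strand: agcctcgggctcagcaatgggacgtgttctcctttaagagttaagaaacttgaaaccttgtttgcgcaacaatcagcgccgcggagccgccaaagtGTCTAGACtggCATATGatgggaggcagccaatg
Id2, chr12:25096093-25096342, minus strand: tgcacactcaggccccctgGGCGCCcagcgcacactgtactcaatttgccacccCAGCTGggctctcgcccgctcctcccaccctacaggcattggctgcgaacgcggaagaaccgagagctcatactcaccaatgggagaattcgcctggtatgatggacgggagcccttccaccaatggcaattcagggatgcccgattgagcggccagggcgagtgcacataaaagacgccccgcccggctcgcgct
Bmp4, chr14:46390670-46390919, minus strand: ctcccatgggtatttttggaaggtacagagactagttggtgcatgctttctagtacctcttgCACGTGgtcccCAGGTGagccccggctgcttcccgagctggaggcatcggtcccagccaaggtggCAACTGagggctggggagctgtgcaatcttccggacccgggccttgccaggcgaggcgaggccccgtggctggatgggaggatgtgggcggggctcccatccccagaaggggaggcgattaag
The Smad6 stretch runs from base -100 to 30 around its start, and the other windows end at base -1. GTCTAGAC lies across the Smad6 start, from base -4 to 4, and occurs in 1 of the 6 windows against 0.213% of all 32851. The motif GGCGCC was found in Id2 and Id4, 2 of 6 windows, against 11.9% of all, and an E-box in 4 of 6 against 72.3% of all. These matches describe letters in a window and are not sites of measured binding. No match overlapped another.

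All arrays lay on 1 slide, with macroH2A1.1 siRNA arrays in columns 2 and 4 and control siRNA arrays in columns 1 and 3, so that column and treatment cannot be told apart, and 46.9% to 49.8% of spots per array were well above background. The targeted gene was lower: Macroh2a1 read 0.38 to 0.78 in macroH2A1.1 siRNA samples, against 1.504 to 1.62 in control siRNA samples (log2 processed intensity minus the array's 75th percentile, the scale of every level below). This value comes from 1 probe, and which splice forms of the gene it reads was not examined. The 12 myotube markers were all measured, and the myoblast genes Pax7 and Myf5 did not pass the filter on dim probes. Samples with the same replicate number deviated together, so the difference of each measured member is given in 2 ways, without pairing and blocked on replicate number. For most genes of the pathway lists only the blocked p is given, and without pairing 0 of the list genes had a limma adjusted p under 0.05. The words rose and fell refer to a limma adjusted p under 0.05 in the blocked fit. That fit called 534 of 13701 genes lower (3.9%) and 566 higher (4.13%), or 8.03% in all, while the fit without pairing called 3 (0.0219%).

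Of the 8 genes, 7 were measured, and all 7 averaged lower with macroH2A1.1 siRNA, where 6847 of all 13701 genes tested did. Msx1 is counted among them at only -0.02. The median difference of the 7 was -0.40 (log2), where the median over all genes tested was 0.00. Without pairing 0 of the 7 passed (limma with Benjamini-Hochberg adjustment), with 2 at an unadjusted p under 0.05, Smad6 and Smad7, where 12.1% of all genes had such a p. In the blocked fit 1 fell, Smad7, and 5 had an unadjusted p under 0.05, where 27.9% of all genes did. Lower values in every pair were found for 5 of the 7 (Bmp4, Smad6, Smad7, Id1 and Id3), against 18.2% of all genes, and none was higher in every pair. The 7 genes share arrays and a pathway and are not replicates of each other. They were chosen with earlier results of these data known, so the shares over all genes are a description and no test.

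**Figure D1:**
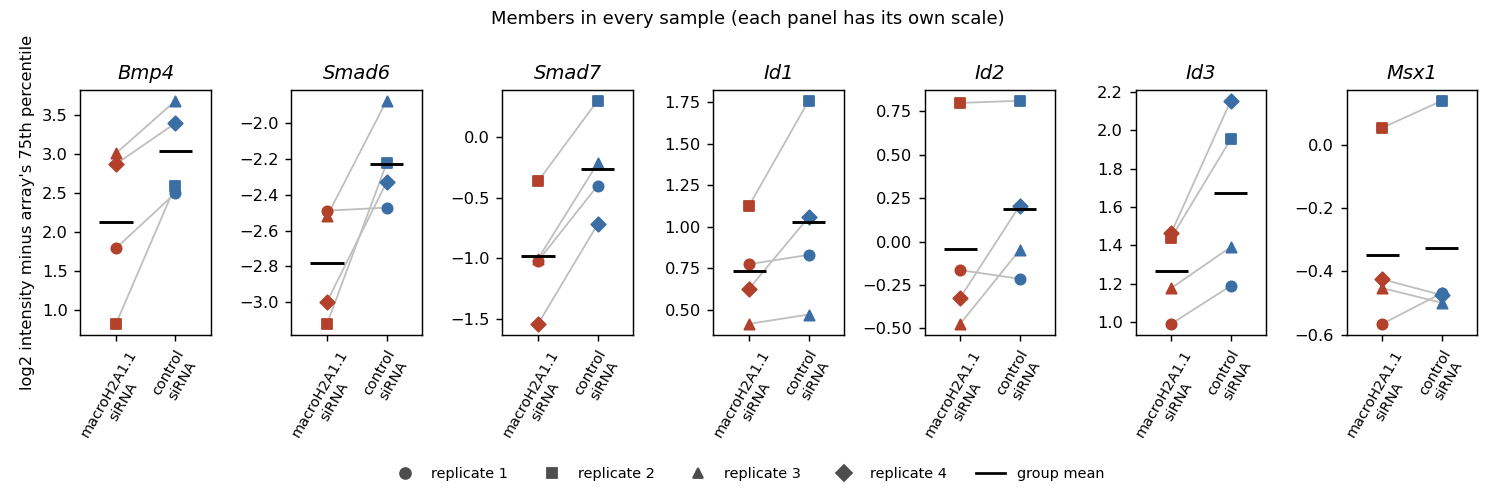
Each point is 1 array (log2 intensity minus the array's 75th percentile), macroH2A1.1 siRNA on the left and control siRNA on the right of each panel, with grey lines joining samples of the same replicate number and black bars for group means (n = 4 each). Smad7 is lower by a like amount in each of the 4 pairs, while Id1, Id2 and Msx1 are high in replicate 2 of both groups.

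Smad7, the inhibitory Smad that blocks both BMP and TGF-beta receptors, showed the most even difference among the 5 genes lower in every pair. It read -1.02, -0.36, -1.003 and -1.54 in macroH2A1.1 siRNA replicates 1 to 4, against -0.40, 0.30, -0.22 and -0.72 in control siRNA replicates 1 to 4. The groups overlapped, because replicate 2 was the highest sample of each group and replicate 4 the lowest. Within pairs the siRNA sample was lower each time, by -0.62, -0.66, -0.79 and -0.82. The mean was -0.98 ± 0.48 with macroH2A1.1 siRNA and -0.26 ± 0.43 with control siRNA (SD, n = 4 each), which left 60.6% of the control signal. The difference of -0.72 had a limma adjusted p of 0.356 without pairing (SE 0.28) and 0.0125 with the replicate block (SE 0.06). As a probe among 24988 its blocked adjusted p in limma was 0.021, and it was the only one of the 7 measured probes called, where 3.15% of all probes were (0.004% without pairing, 0 of the 7). An exact two-sided permutation test gave p = 0.0857 over all regroupings and 0.125 within pairs, the smallest value that 4 pairs allow. The blocked call was lost without pair 1 (difference -0.76, limma adjusted p = 0.068), without pair 3 (-0.70, 0.069) and when dim probes were kept (0.0723), and the difference lay between -0.93 and -0.50 over all 30 other settings.

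Smad6, the inhibitory Smad that acts mainly on the BMP branch and whose start carries GTCTAGAC, was the only gene of the 7 whose groups did not overlap, where 3.71% of all genes were lower in this way. It read -2.49, -3.12, -2.52 and -2.999 with macroH2A1.1 siRNA, against -2.47, -2.22, -1.87 and -2.33 with control siRNA. The gap between the groups was narrow, since replicate 1 differed by only -0.02 and the other pairs by -0.90, -0.65 and -0.67. The mean was -2.78 ± 0.33 with macroH2A1.1 siRNA and -2.23 ± 0.26 with control siRNA (SD, n = 4 each). The difference of -0.56 (SE 0.19) had a limma adjusted p of 0.292 without pairing and 0.0782 with the block (SE 0.15), and the exact two-sided permutation p was 0.0286, the smallest that 4 against 4 samples allow. Within pairs the exact p was 0.125, the smallest that 4 pairs allow, which does not pass. Its processed intensity was low, from 33.8 to 45.9 in macroH2A1.1 siRNA arrays and from 60.3 to 71.0 in control siRNA arrays. With normexp background correction the difference was -0.18, and with the authors' series values -0.26.

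Bmp4, the ligand gene, had the largest average difference of the 7 and the widest spread. Its measured probe read 1.79, 0.82, 3.005 and 2.87 with macroH2A1.1 siRNA, against 2.50, 2.59, 3.68 and 3.39 with control siRNA. Every pair was lower, but pair 2 by -1.77 and the others by -0.71, -0.67 and -0.53, and the groups overlapped. The mean was 2.12 ± 1.02 with macroH2A1.1 siRNA and 3.04 ± 0.59 with control siRNA (SD, n = 4 each), or 52.9% of the control signal. The difference of -0.92 had a limma adjusted p of 0.529 without pairing (SE 0.51) and 0.0607 with the block (SE 0.22). It passed in 3 of 10 other blocked settings (adjusted p from 0.0197 to 0.184), and without macroH2A1.1 siRNA replicate 2 the difference without pairing was -0.49. The other Bmp4 probe, closer to the 3' end, stayed at background level on all 8 arrays and gives no fold.

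The Id genes differed less. Id3 is read by a probe at chr4:135700075-135700249 (mm9, plus strand), whose 60 bases are drawn from a genomic span of 175 and so skip an intron. It is shown because spliced Id3 RNA, and not genomic DNA, holds its letters in 1 run.
Id3 probe: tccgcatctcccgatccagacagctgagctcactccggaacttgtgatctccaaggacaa
Id3 read 0.99, 1.44, 1.18 and 1.47 with macroH2A1.1 siRNA, against 1.19, 1.95, 1.39 and 2.15 with control siRNA. Every pair was lower, by -0.20, -0.51, -0.21 and -0.69, and the groups overlapped. Its mean was 1.27 ± 0.23 with macroH2A1.1 siRNA and 1.67 ± 0.46 with control siRNA (SD, n = 4 each), a difference of -0.40 (SE 0.23 without pairing and 0.10 with the block). The limma adjusted p was 0.539 without pairing and 0.0709 with the block, and it passed in 2 of 10 other blocked settings, normexp (0.0315) and the authors' series values (0.031). Without control siRNA replicate 4 the difference was -0.24.

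Id1, the member of the family most often used as a BMP readout, was read at chr2:152563083-152563142 (mm9, plus strand). It read 0.77, 1.13, 0.41 and 0.63 with macroH2A1.1 siRNA, against 0.83, 1.76, 0.47 and 1.06 with control siRNA. Pairs 2 and 4 were lower by -0.63 and -0.43, and pairs 1 and 3 by only -0.06 each. The difference of -0.29 had a 95% interval from -0.92 to 0.33 without pairing and from -0.59 to -0.0003 with the block. Its limma adjusted p was 0.752 without pairing and 0.179 with the block. Unadjusted, the blocked limma p was 0.0498, at the very edge of 0.05. Leaving out 1 array at a time gave -0.48 to -0.05, the last without control siRNA replicate 2.

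Id2, whose promoter window holds both GGCGCC and an E-box, was read at chr12:25778904-25778963 (mm9, minus strand). It read -0.16, 0.80, -0.47 and -0.32 with macroH2A1.1 siRNA, against -0.21, 0.81, -0.05 and 0.21 with control siRNA. Pairs 3 and 4 were lower by -0.42 and -0.53, whereas pairs 1 and 2 read 0.05 and -0.01. The difference was -0.23 (95% interval -0.96 to 0.50 without pairing, limma adjusted p = 0.863, and 0.275 with the block), and leaving out 1 array at a time gave -0.51 (without macroH2A1.1 siRNA replicate 2) to -0.02 (without control siRNA replicate 2). Id4, the family member best known from the nervous system, was not well above background on any of the 8 arrays, at chr13:48358668-48358727 (mm9, plus strand). Its signal bounds nothing beyond that, and no fold is given.

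Msx1, a homeobox repressor of Myod1 in myoblasts and a classic BMP target, was read at chr5:38212305-38212364 (mm9, minus strand). It read -0.57, 0.05, -0.45 and -0.43 with macroH2A1.1 siRNA, against -0.47, 0.14, -0.50 and -0.48 with control siRNA. Replicate 2 stood above the other samples in both groups, and the pairs were split, at -0.10, -0.09, 0.05 and 0.05. The difference was -0.02 with a 95% interval from -0.45 to 0.41 without pairing and from -0.17 to 0.13 with the block (limma adjusted p = 0.985 and 0.845). Its sign turned in 5 of 30 other settings.

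**Figure D2:**
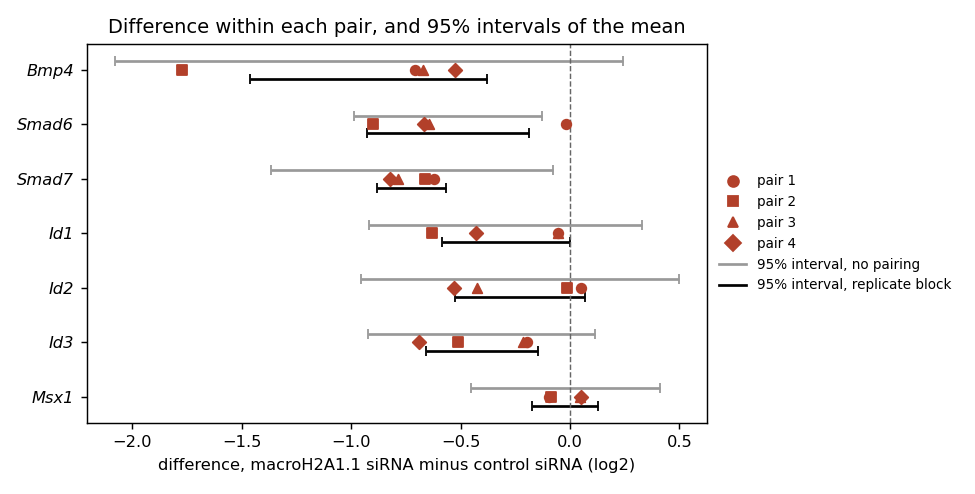
Points give the difference of macroH2A1.1 siRNA minus control siRNA (log2) within each pair of the same replicate number, and lines the 95% interval of the mean difference from limma, grey without pairing and black with the replicate block. The 4 pairs of Smad7 lie between -0.82 and -0.62, whereas those of Bmp4 spread from -1.77 to -0.53.

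Levels of several members varied among samples of 1 group along with marker lists, in different directions. Of the myoblast and cycling cell markers 6 of 8 were measured, all of them cell cycle genes, since Pax7 and Myf5 failed the filter. The list thus reads cycling only and no myoblast identity. Its level (median log2 deviation from each gene's mean) was -0.36, 1.29, -0.96 and -0.04 with macroH2A1.1 siRNA. With control siRNA it was -0.02, 1.11, -1.02 and 0.28. The summed linear level of these 6 genes ranged from 6.42 to 30.9 with macroH2A1.1 siRNA and from 6.55 to 26.5 with control siRNA. Such sums, here and below, are set mostly by the brightest genes of a list. Replicate 2 was thus the highest in both groups, as it was for Id1, Id2 and Msx1, and replicate 3 was the lowest for these markers and for Id1. Bmp4 and Smad6 ran the other way, with a Pearson r of -0.76 and -0.73 to this list within groups (8 arrays that share a slide, a description). Over all 8 arrays the Pearson r was -0.60 for Bmp4 and -0.44 for Smad6. Both genes were lowest in macroH2A1.1 siRNA replicate 2. The part of cycling cells in these differences was not tested.

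Myotube markers (12 of 12 measured) stood at 0.66, -0.08, 0.48 and 0.02 with macroH2A1.1 siRNA, against 0.22, -0.72, -0.04 and -0.56 with control siRNA. Their summed linear level ranged from 1498.2 to 2413.8 with macroH2A1.1 siRNA and from 1152.1 to 1752.8 with control siRNA. Of the 12, 8 rose, where 4.13% of all genes did, and 0 passed in the limma fit without pairing. Id3 was highest in control siRNA replicates 2 and 4, the samples with the lowest myotube marker levels, and lowest in macroH2A1.1 siRNA replicate 1, the sample with the highest. The part of myotube content in the Id3 and Smad7 differences was not tested, and in bulk RNA fewer cells of a type and less RNA per cell cannot be told apart.

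Other marker lists were set beside the same samples. Interferon response genes (8 of 10 measured) stood at 0.40, 2.50, 2.66 and -0.68 with macroH2A1.1 siRNA, against -1.49, -0.96, -0.73 and -1.71 with control siRNA. Their summed level was 5.29 to 74.6 with macroH2A1.1 siRNA and 3.39 to 6.6 with control siRNA, and 4 of the 8 rose (Ifit1, Ifit3, Usp18 and Cxcl10). Of these, Ifit1, Usp18 and Cxcl10 were well above background on only 2, 1 and 3 control siRNA arrays. Rsad2, on the list but not among those that rose, was so on only 2. All of these passed the filter on dim probes through the macroH2A1.1 siRNA group alone, and the count supports nothing. Smad7 and the interferon list had a Pearson r of 0.70 within groups and -0.18 over all 8 arrays. The list's levels, its sums and this r include the same dim genes and support nothing either. The part of interferon response genes in the Smad7 difference was not tested. Fibroblast markers (6 of 8 measured) summed to 575 to 932 with macroH2A1.1 siRNA and 695 to 871 with control siRNA. Of these 6, 1 fell, where 3.9% of all genes did. Bmp4 followed the fibroblast list, with a Pearson r of 0.82 over all 8 arrays and within groups, and the part of fibroblast-like cells in its difference was not tested. Osteoblast markers, which C2C12 cells can acquire under BMP, were measured for 4 of 8, with Sp7, Ibsp, Dmp1 and Alpl failing the filter on dim probes. The measured 4 summed to 22.6 to 43.7 with macroH2A1.1 siRNA and 22.0 to 53.0 with control siRNA. Nearly all of this sum was Spp1, which averaged 4.80 with macroH2A1.1 siRNA and 5.03 with control siRNA. Bglap, Phex and Runx2 had negative means in both groups, so the sum does not speak for the list. Macrophage markers were measured for 5 of 6 and summed to 19.1 to 25.6 with macroH2A1.1 siRNA and 21.6 to 24.3 with control siRNA. Most of this sum was Itgam, which averaged 4.24 with macroH2A1.1 siRNA and 4.22 with control siRNA. In the blocked limma fit 0 of those 5 and 0 of the 4 osteoblast markers passed.

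**Figure D3:**
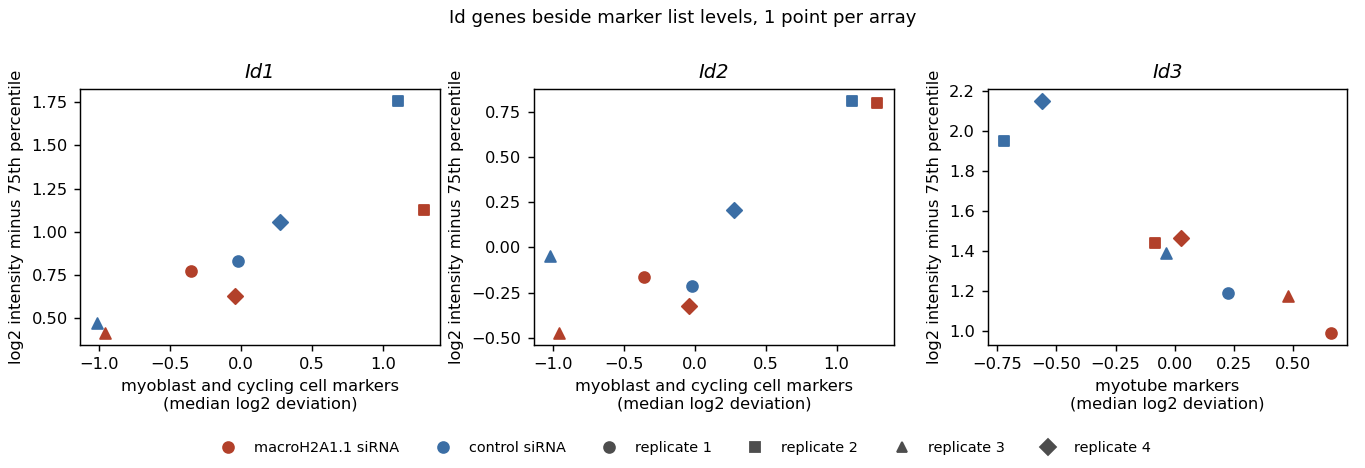
Each point is 1 array, with the log2 level of an Id gene on the vertical axis and the median log2 deviation of a marker list on the horizontal axis. Id1 and Id2 are highest in replicate 2 of both groups, where cycling markers stand at 1.29 (macroH2A1.1 siRNA) and 1.11 (control siRNA), and Id3 is lowest where myotube markers are highest.

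Genes around these members were taken from 6 lists by role, 77 genes in all, of which 54 were measured. Without pairing 0 passed (limma), and 12 of the 54 had an unadjusted p under 0.05, where 1657 of all 13701 genes (12.1%) did. With the block 6 rose and 10 fell, or 29.6% of those measured against 8.03% of all genes, with a median difference of -0.01 over the lists. Of these 16, 0 passed without pair 1, 0 without pair 3, 0 with dim probes kept, 2 without pair 2 and 10 without pair 4, while the sign of all 16 held throughout. Between 12 and 16 passed in the other blocked settings. The lists were chosen with earlier results of these data known, so 29.6% beside 8.03% is a description and no test.

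Of 12 BMP ligand genes other than Bmp4, 3 were measured, 2 rose and 0 fell. Gdf5, a ligand known from joint formation and from muscle that has lost its nerve supply, averaged 1.35 ± 0.64 with macroH2A1.1 siRNA and 0.18 ± 0.66 with control siRNA (SD, n = 4 each), a rise of 1.17 (limma adjusted p = 0.294 without pairing, 0.0308 with the block). Its other probe differed by 0.59. Gdf7, a close relative, rose by 0.80 (limma adjusted p = 0.32 and 0.0492), with 0.33 in the authors' series values. The remaining measured ligand, Bmp8a, read 0.16 (limma adjusted p = 0.211 with the block).

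Receptor genes differed little: 11 of 12 were measured, 1 rose and 0 fell, with a median of 0.04. The riser was Neo1, which encodes neogenin, a partner of the RGM co-receptors, at 2.06 ± 0.28 with macroH2A1.1 siRNA and 1.72 ± 0.17 with control siRNA (SD, n = 4 each; difference 0.35, blocked limma adjusted p = 0.0435). Among the intracellular regulators 10 of 11 were measured, 0 rose and 2 fell, with a median of -0.15. Smad5, which carries the BMP signal, fell by 0.33 to 3.53 ± 0.14 with macroH2A1.1 siRNA, against 3.86 ± 0.13 with control siRNA (SD, n = 4 each; blocked limma adjusted p = 0.0313), and its other probe differed by -0.17. Skil, which encodes SnoN, a repressor of Smad transcription, fell by 0.39 (blocked limma adjusted p = 0.0424).

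Secreted antagonists and Bambi had 10 of 16 measured, of which 0 rose and 3 fell, with a median of 0.01. Fstl1, a secreted glycoprotein that binds BMP ligands, averaged 6.44 ± 0.15 with macroH2A1.1 siRNA and 7.16 ± 0.20 with control siRNA (SD, n = 4 each). It fell by 0.72 (limma adjusted p = 0.114 without pairing, 0.0125 with the block), and its groups did not overlap. Bmper, a BMP-binding regulator, fell by 0.66 and Fstl3, which binds activin and myostatin, by 0.41 (blocked limma adjusted p = 0.0424 and 0.0291). The antagonist gene Nog, named after its value was seen, read 0.03 (blocked limma adjusted p = 0.884).

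Other genes known to respond to BMP had 9 of 12 measured, of which 0 rose and 4 fell, with a median of -0.36. Tnfrsf11b, which encodes the decoy receptor osteoprotegerin, fell by 0.92 to -2.87 ± 0.41 with macroH2A1.1 siRNA, against -1.95 ± 0.39 with control siRNA (SD, n = 4 each; blocked limma adjusted p = 0.0156), and by 0.38 with normexp. The homeobox gene Dlx2 fell by 0.69 (blocked adjusted p = 0.015, limma), with -0.45 in normexp. The AP-1 gene Junb fell by 0.45 (blocked limma adjusted p = 0.0245). Hes1, a repressor that Notch also controls, fell by 0.36 (blocked limma adjusted p = 0.049) and read -0.10 at its smallest over the settings. Hey1, named after its value was seen, read 0.76, opposite in sign to the 4 that fell (blocked limma adjusted p = 0.0505).

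Among partners of Id proteins and other helix-loop-helix inhibitors, 11 of 14 were measured, 3 rose and 1 fell. The E protein genes Tcf3 and Tcf12, named after their values were seen, read 0.01 each (blocked limma adjusted p = 0.919 and 0.944). Myod1 rose by 0.38 (3.27 ± 0.12 with macroH2A1.1 siRNA, 2.89 ± 0.17 with control siRNA, SD, n = 4 each; blocked limma adjusted p = 0.0403). Myf6, the regulator of mature fibres, rose by 2.17 (blocked limma adjusted p = 0.0259). Heyl, a Notch target that can bind MyoD partners, rose by 0.37, and Twist2, a repressor of MyoD activity, fell by 0.41 (blocked limma adjusted p = 0.0368 and 0.0452).

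**Figure D4:**
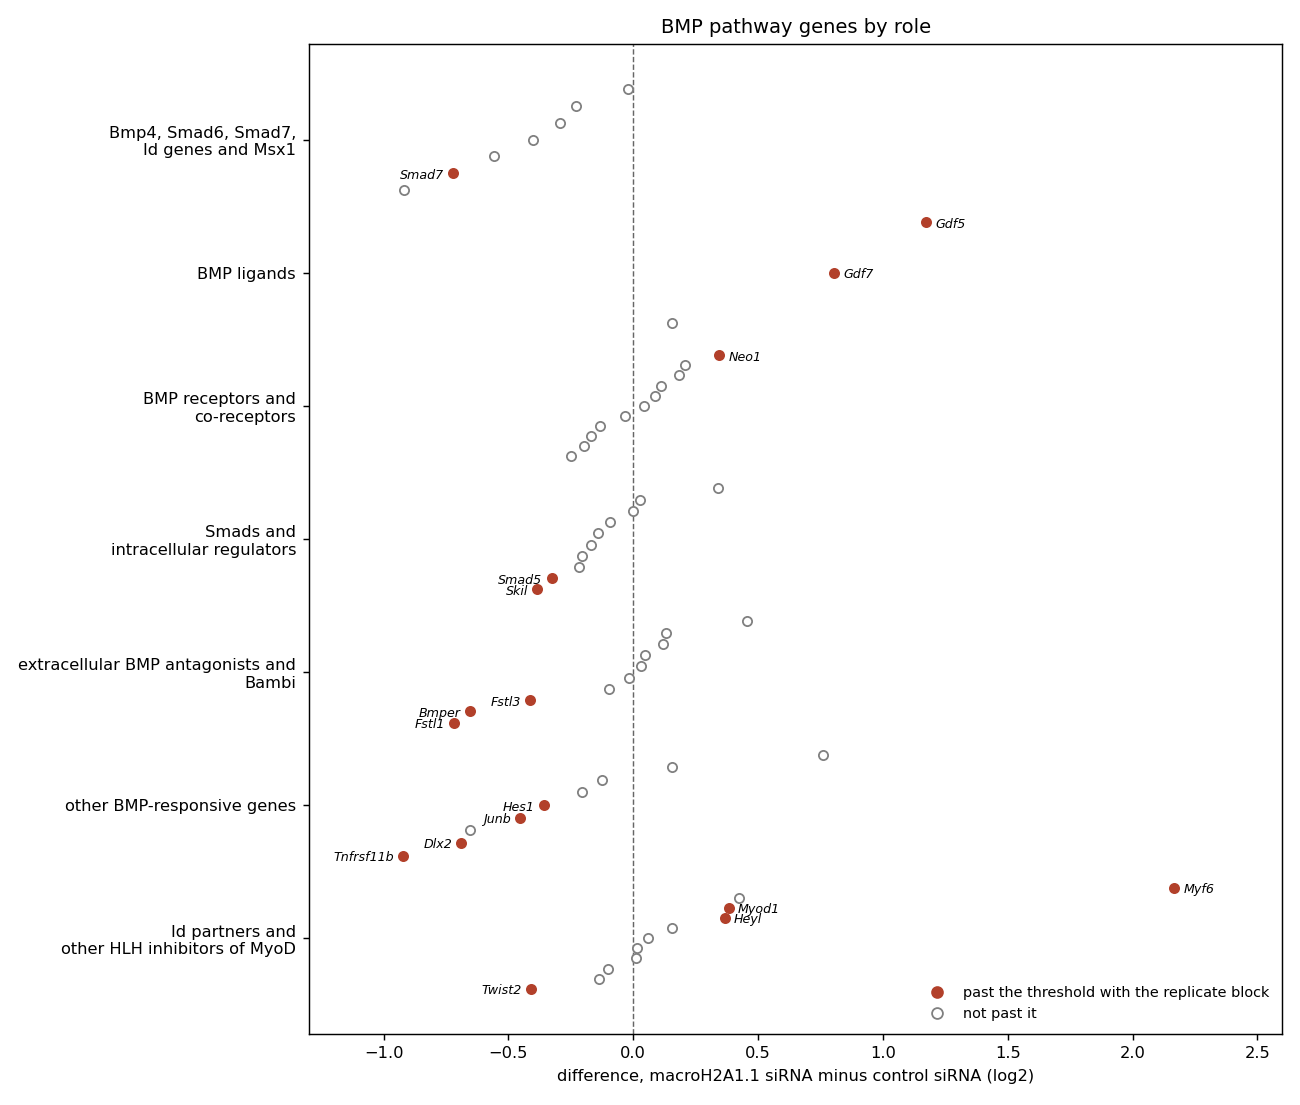
Each point is 1 measured gene placed by its difference, macroH2A1.1 siRNA minus control siRNA (log2), in rows by role, filled where the adjusted p with the replicate block is under 0.05. Filled genes lie on the left for antagonists, intracellular regulators and BMP-responsive genes, and on the right for ligands and receptors (1 receptor gene). The row of Id partners and other helix-loop-helix inhibitors has 3 filled genes on the right and 1 on the left.

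The genes with the most similar pattern over the 8 arrays, among 13068 measured on all of them, are given as a description. They were Phldb2, Cotl1 and Sla for Smad7 (Pearson r 0.99, 0.98 and 0.98), Mapk9, Sec23ip and Lrrk1 for Smad6 (0.97 each), and Slit2, Cyp1b1 and Kdsr for Bmp4 (0.99 each). For the Id genes they were Efemp2, Cplane1 and Nono for Id1 (0.97 each), H4c14, Bin3 and Ckap2l for Id2 (0.98, 0.98 and 0.97), and Wee1, Nsmce1 and Tctn2 for Id3 (0.97 each). For Msx1 they were Acap1, Eno1b and Sirt6 (0.99, 0.98 and 0.98), with Spearman rho of 0.83, 0.60 and 0.69, since replicate 2 alone set most of its spread. These arrays share a slide and pairs, and the best of so many genes is high by selection.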

How the data were processed

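RNA (500 ng per sample, per the labels' protocols) was labelled with Cy3 and hybridised to 1-colour Agilent arrays. The authors read spot intensity in Agilent Feature Extraction 10.7.3.1, on a design of build mm9, per the file headers, and its processed intensity is background-subtracted and detrended. The authors' deposited series values are on a log2 scale with equal column medians (6.29), an inference from their fit to each array (r from 0.9976 to 0.9995), with background handling unknown; they served as an alternative.

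From the log2 of processed intensity, the array's own 75th percentile was subtracted. Control spots were dropped, spots with outlier flags (143 to 236 on an array) became missing values, and repeat spots were averaged. Of 55681 probes, 32985 had a symbol, 27509 of them by accession in the RefSeq table (GRCm38.p6). A probe was kept if a group had it well above background on each of its 4 arrays (24988), and the kept probe of highest mean stood for each of 13701 genes. Columns of other series numbered 0. The test was limma 3.58.1 (R 4.3.3), two-sided, with a threshold of 0.05 on p-values adjusted by Benjamini-Hochberg across the genes, with Python 3.11.15 for tables. Same-numbered samples correlated in their deviations at 0.61, 0.55, 0.66 and 0.41, so the numbers pair the samples by the rule that each exceeds 0.1; a shared culture and neighbouring places on the slide cannot be told apart. On data simulated for this comparison (13650 genes), 44.8% of 1.5-fold and 65.7% of 2-fold changes were recovered without pairing, with 1 false among 136 calls. With the block these shares were 29.9% and 71.6%, with 8 false among 138. The block thus recovered fewer 1.5-fold changes in the simulation, whereas in the arrays it raised the genes called from 3 to 1100. The simulated spread may therefore differ from that of the arrays, and these rates may not hold for them. The naming rule took all members, list genes past the threshold in either fit, and the 3 most similar genes per member. The members and lists were chosen with earlier results of these data known. The number of arrays limits the precision.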

Additional observations from a re-analysis of the deposited data

Results flagged for a closer look

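Msx1 in control siRNA replicate 2 lay far from the other control samples (0.14 against -0.47, -0.50 and -0.48). The gap to its nearest neighbour took 0.953 of the group's range, above Dixon's 95% critical value for 4 samples. Chance alone gives a gap above that critical value in about 5% of groups, and 14 groups were looked at. Replicate 2 of macroH2A1.1 siRNA was also the highest of its group for Msx1, at 0.05.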

How the results depend on the processing

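Without pairing, 0 of the 7 measured genes passed in any of the 19 settings. The count of all genes called, 3, was 1 with median centring, 10 with the array row as a block, 7 with the array column as a random block (each column holds 1 group, so this does not separate the column from the treatment), 6 with array weights, and 0 to 11 when 1 array was left out. With the replicate block it was 1100, with 1 member lower (Smad7, also 1 among probes) and with 6 pathway genes higher and 10 lower. Leaving out 1 pair gave 0 genes (pairs 1 and 3), 134 (pair 2) or 588 (pair 4), and 0 to 1 member. The blocked fit called 1887 genes and 3 members with normexp, 1713 and 4 with the authors' series values, 1044 and 1 with quantile normalization, 0 and 0 with no filter, 1338 and 2 with probes above background on all 8 arrays, and 939 and 1 with the mean of kept probes. The exact p of Smad6 was 0.125 within pairs. Bmp4, Smad6, Smad7, Id1, Id2 and Id3 kept their direction in all 30 other settings, and Msx1 in 25. The dim Smad6 probe lies near the background, and its size moved with normexp and with the series values; the cause was not tested.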
